A study of Mus musculus with 2 samples.

Results

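Of the 25793 Myb peaks in the deposited list, 5388 lay at CpG-rich promoters of single protein-coding genes, which was 20.9% of the list (exact 95% interval 20.4% to 21.4%). They were taken from the listed peaks by position, sequence and annotation, and not by height. The summit, the base of highest pileup, had to lie within 1 kb of the nearest transcript start of a protein-coding gene (GENCODE vM21, mm10). The 500 bp on each side of that start had to hold a GC content of 55% or more and an observed/expected CpG ratio of 0.6 or more, the ratio being the number of CpG dinucleotides over that predicted from the C and G content. Genes whose 5′ end lay within 1 kb of the 5′ end of a divergent protein-coding gene were left out. Set beside them are 771 peaks at such divergent promoter pairs, 2795 at CpG-poor single promoters, and 16839 farther than 1 kb from any protein-coding start.

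Binding was measured by ChIP-Seq in WT mouse Lin– cells from bone marrow, which are depleted of mature blood lineages and enriched for HSPCs (hematopoietic stem and progenitor cells), with a stated purity above 80%. The study's methods define WT as Ep300 fl/fl mice, which received poly(I:C) like the Mx1-Cre animals of the study, but do not say so for the ChIP-Seq cells in particular. Per the study's section on Myb ChIP-Seq, chromatin was precipitated with antibody ab76009 (Abcam) against Myb or with nonspecific rabbit IgG (Cell Signaling, 2729S). The study's list of reagents names a different Abcam antibody against Myb for ChIP-Seq. There was 1 library of each kind, the IgG one serving as the background of the peak calls. With no second Myb library there is no estimate of the spread between mice, no test was run, and every interval below covers counting error only. The labels do not say how many mice were pooled, their age, or which cell types made up the Lin– fraction, and a peak list holds no expression values by which the cell type could be checked. The study's methods give an age at poly(I:C) injection and state that both sexes were used, but not for these cells in particular.

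Many mammalian genes, including most of those active in every cell and many regulators of development, start within CpG islands, stretches of GC-rich DNA that are usually free of DNA methylation. Such promoters often lack a TATA box, start transcription at several positions, and carry sites for factors such as the SP/KLF, ETS, NRF1 and NFY families. Myb is a DNA-binding transcription factor required for definitive hematopoiesis, which recognizes the core sequence AACNG and recruits the acetyltransferases p300 and CBP.

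The summit windows of the 8 strongest peaks of the class, ranked by fold enrichment over the IgG background, are shown to give the sequence under the highest peaks. Each is given 5′ to 3′ on the strand of its gene, from 50 bp before to 50 bp after the summit in the mm10 (GRCm38) reference sequence. Capitals mark the 4 Myb motif forms CAACGG or CAACTG or TAACGG or TAACTG on either strand.
Hmga1 (chr17:27556007-27556107, plus strand): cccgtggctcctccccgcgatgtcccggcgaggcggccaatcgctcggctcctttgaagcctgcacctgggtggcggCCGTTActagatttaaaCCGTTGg
Maz (chr7:127027377-127027477, minus strand): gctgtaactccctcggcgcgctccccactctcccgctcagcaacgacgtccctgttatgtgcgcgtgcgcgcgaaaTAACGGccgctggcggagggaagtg
Ndufaf3 (chr9:108567221-108567321, minus strand): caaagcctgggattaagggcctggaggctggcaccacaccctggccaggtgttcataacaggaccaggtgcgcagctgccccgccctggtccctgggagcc
H2afx (chr9:44334713-44334813, plus strand): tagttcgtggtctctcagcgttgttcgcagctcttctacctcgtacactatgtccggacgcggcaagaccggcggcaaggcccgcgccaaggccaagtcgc
Sde2 (chr1:180850750-180850850, plus strand): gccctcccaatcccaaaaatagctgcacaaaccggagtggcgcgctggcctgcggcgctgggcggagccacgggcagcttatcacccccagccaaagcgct
Isca1 (chr13:59770056-59770156, minus strand): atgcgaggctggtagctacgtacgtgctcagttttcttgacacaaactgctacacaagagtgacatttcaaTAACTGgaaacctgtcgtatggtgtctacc
Capza1 (chr3:104863974-104864074, minus strand): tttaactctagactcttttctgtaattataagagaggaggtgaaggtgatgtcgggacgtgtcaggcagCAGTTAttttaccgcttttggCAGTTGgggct
Hnrnph1 (chr11:50377376-50377476, plus strand): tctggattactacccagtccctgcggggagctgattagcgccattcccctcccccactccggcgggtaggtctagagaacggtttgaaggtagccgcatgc
A Myb motif stood in 4 of these 8 windows, with 2 matches each for Hmga1 and Capza1 and 1 each for Maz and Isca1. The windows of Ndufaf3, H2afx, Sde2 and Hnrnph1 held none of the 4 forms. The shorter core AACNG, which also occurs in the windows of Ndufaf3, Sde2 and Hnrnph1, was not marked.

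The next 4 windows are, for another 4 motif families, the strongest peaks not yet shown that hold the motif. Capitals mark the ETS form CCGGAAG in Zbed4, the NRF1 form in Srsf2 (GCGCA followed after any 1 base by GCGC), the SP/KLF form GGGCGG in Ino80 and the overlapping E2F forms TTCCCGC or TTTCCCGC in Vars.
Zbed4 (chr15:88751211-88751311, plus strand): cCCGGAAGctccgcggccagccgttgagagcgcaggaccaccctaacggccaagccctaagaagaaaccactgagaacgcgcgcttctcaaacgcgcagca
Srsf2 (chr11:116853151-116853251, minus strand): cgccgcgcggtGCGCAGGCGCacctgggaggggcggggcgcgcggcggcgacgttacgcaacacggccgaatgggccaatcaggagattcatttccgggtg
Ino80 (chr2:119478056-119478156, minus strand): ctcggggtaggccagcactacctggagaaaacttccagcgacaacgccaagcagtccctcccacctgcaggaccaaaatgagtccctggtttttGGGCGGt
Vars (chr17:35000765-35000865, plus strand): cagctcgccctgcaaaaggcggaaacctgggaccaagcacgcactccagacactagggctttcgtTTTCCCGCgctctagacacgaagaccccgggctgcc
The Zbed4 window also holds 2 Myb motifs, left here in lower case. Fold enrichment at these summits was 15.8 for Zbed4, 17.7 for Srsf2, 17.9 for the chromatin remodeler Ino80 and 17.2 for the tRNA synthetase gene Vars.

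About every other CpG-rich single promoter had a Myb peak. Of 8647 genes with at least 1 such promoter, 4238 had a summit within 1 kb of a CpG-rich start, which was 49.0% (48% to 50.1%). The share was 44.1% (41.6% to 46.7%) for 1482 genes in divergent pairs and 14.2% (13.6% to 14.8%) for 11724 genes with CpG-poor promoters only. Over all 21853 protein-coding genes it was 30.0%, counting for each gene only summits at starts of its own class. A gene of the CpG-rich class whose only summits lay nearest to its CpG-poor starts is counted as without a peak, here and below. The interval of the CpG-rich class overlapped neither of the others. Each summit was counted at its nearest start alone. In a divergent pair a summit within 1 kb of both genes thus counted for 1 of them, which lowers the share of that class. The comparison with divergent pairs is therefore not on equal terms.

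Within the class, the share rose with CpG content. It was 32.2% (30.1% to 34.2%) in the 2055 genes whose most 5′ CpG-rich start had an observed/expected ratio from 0.6 to 0.7, and 46.3% (44.3% to 48.2%) from 0.7 to 0.8. It reached 55.2% from 0.8 to 0.9, 64.1% from 0.9 to 1, and 68.7% (63.8% to 73.3%) in the 383 genes at 1 or above. GC content itself hardly separated the genes, with a median of 62.2% (62.0% to 62.5%) in genes with a peak and 62.8% (62.6% to 63.0%) in genes without. The median observed/expected CpG ratio was 0.821 (0.817 to 0.825) with a peak and 0.757 (0.753 to 0.762) without. A TATAAA 40 to 16 bp before the start was rare in both, in 0.708% of genes with a peak and 0.862% of those without, and the intervals overlapped. An annotated noncoding gene pointing away from the promoter within 1 kb was present at 8.12% (7.31% to 8.98%) of genes with a peak and 5.62% (4.96% to 6.35%) of genes without.

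**Figure D1:**
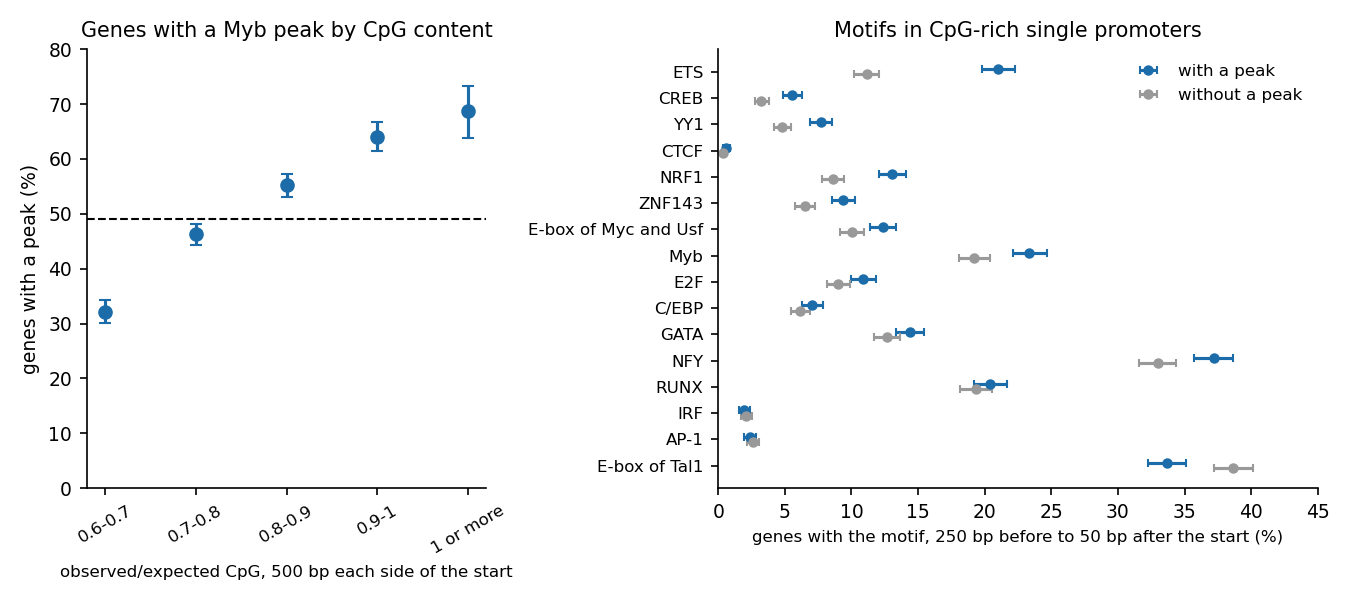
Left, share of genes with a CpG-rich single promoter that had a Myb peak (y axis, %) by the observed/expected CpG ratio around the start (x axis); the dashed line marks 49.0% over all 8647 genes. Right, share of promoters that hold each motif in genes with (blue) and without (gray) a peak, with SP/KLF left out for scale; bars are exact 95% intervals. The share with a peak climbs from 32.2% to 68.7%, and the ETS motif shows the widest gap on the right.

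The strongest peaks of the class stood at genes of several functions. The highest fold enrichment was 30.9 at Hmga1, an architectural chromatin protein, with 103 Myb reads at the summit (exact Poisson 95% interval 84.1 to 125) and a −log10 q-value of 95.8. This peak (chr17:27554655-27556979) had its summit 440 bp upstream of the nearest Hmga1 start, outside any protein-coding gene. Maz, a zinc finger transcription factor, had the highest −log10 q-value of the class at 98.1, with a fold enrichment of 28.0 and 114 reads (94.0 to 137) in chr7:127027021-127028470, 390 bp upstream of its start. Ndufaf3, an assembly factor of respiratory complex I, followed with 24.3-fold and 101 reads (82.3 to 122.7) in chr9:108566258-108568286, in a noncoding stretch of an exon 163 bp downstream. H2afx, the histone variant that marks DNA breaks, had 20.3-fold and 92 reads (74.2 to 113) in chr9:44333788-44337223, with the summit in its coding exon 69 bp downstream of the start. Counting error alone leaves the order of these 4 peaks unresolved, since their read intervals overlapped.

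The rest of the 10 strongest ranged from 18.8-fold to 19.9-fold, with 59 to 82 reads. They were Sde2 at 19.9, the iron-sulfur assembly gene Isca1 at 19.5, the actin capping subunit Capza1 at 19.3, the splicing regulator Hnrnph1 at 19.2, the calcium-binding chaperone gene Calr at 19.0 and the chaperone Dnajc10 at 18.8. Of the 10 summits, 7 lay upstream of the nearest start and 3 downstream. The widest peak of the class, 7192 bp in chr8:84658592-84665783 at the immediate early gene Ier2, was not among the strong ones, with a fold enrichment of 3.59 and 50 reads (37.1 to 65.9).

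Across the class the median fold enrichment was 4.72 (4.69 to 4.78), with quartiles of 3.84 and 6.12, a range from 1.9 to 30.9, and a median of 20 Myb reads at the summit. The median was 4.71 (4.51 to 4.91) at divergent pairs, 4.60 (4.48 to 4.68) at CpG-poor promoters and 4.47 (4.47 to 4.48) away from starts. The median heights thus lay close together among listed peaks, all of which had passed the same peak calling. The share of genes with a peak was 49.0% for CpG-rich and 14.2% for CpG-poor single promoters. The q-value was at most 0.05 in 94.8% of these peaks (94.2% to 95.4%), beside 92.8% of all peaks. Fold enrichment of 10 or more was reached by 216 peaks of the class, or 4.01% (3.5% to 4.57%), compared with 6.23% (4.63% to 8.17%) at divergent pairs, 4.47% (3.74% to 5.31%) at CpG-poor promoters and 4.54% (4.23% to 4.86%) away from starts. Median peak width was 692 bp (677 to 708) at CpG-rich single promoters, 714 bp (681 to 772) at divergent pairs, 628 bp (612 to 648) at CpG-poor promoters and 535 bp (530 to 540) away from starts. The IgG background at the summit, an estimate by the peak caller, had a median of 2.15 at CpG-rich and at CpG-poor single promoters. It was 2.34 at divergent pairs and 2.00 away from starts, and its part in these differences was not tested.

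Values just inside and outside the limits of the choice were close. Peaks at starts with an observed/expected CpG ratio of 0.60 to 0.65 had a median fold enrichment of 4.45 (292 peaks), and those just below, from 0.55 to 0.60, had 4.44 (201 peaks). For GC content the medians were 4.66 just above 55% (549 peaks up to 57%) and 4.69 just below (441 peaks down to 53%). Summits 901 to 1000 bp from the start had a median of 4.47 (187 peaks), and those 1001 to 1100 bp away had 4.22 (203 peaks).

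Summits were centered on the start, with a different spread on each side. The median distance was 2 bp downstream (5 bp upstream to 12 bp downstream), with quartiles 234 bp upstream and 229 bp downstream, and 50.2% of summits (48.9% to 51.5%) lay downstream. Within 250 bp of the start lay 52.7% (51.3% to 54.0%), compared with 59.6% (57.7% to 61.4%) at CpG-poor promoters and 67.3% (63.9% to 70.6%) at divergent pairs. The distribution was not a single symmetric hump. From 251 to 500 bp, upstream summits (746 peaks, 13.8%) outnumbered downstream ones (460 peaks, 8.54%), while beyond 500 bp downstream summits (829 peaks, 15.4%) outnumbered upstream ones (515 peaks, 9.56%). At divergent pairs 73.2% of summits (69.9% to 76.3%) lay downstream, with a median of 92 bp. There each summit was counted at the nearer start of the pair, which limits how far upstream it can lie. Positions at divergent pairs are thus not directly comparable with those at single promoters.

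**Figure D2:**
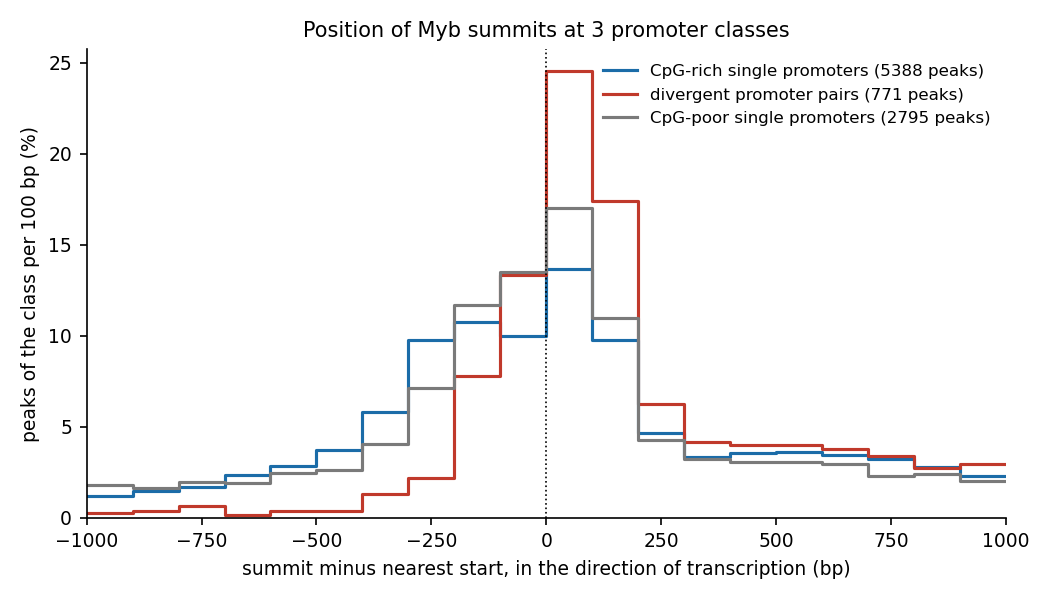
Share of peaks per 100 bp (y axis, %) by distance of the summit from the nearest protein-coding start (x axis, bp, positive downstream) for 3 promoter classes. Summits at CpG-rich single promoters are spread over about 300 bp upstream and 200 bp downstream with a low plateau beyond. Those at divergent pairs sit mostly downstream, where counting at the nearer start of the pair limits the upstream side.

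Peaks near the start were somewhat stronger than those at its edges. The median fold enrichment was 4.94 (4.85 to 5.03) within 250 bp, 4.87 (4.69 to 5.06) from 251 to 500 bp upstream and 4.47 (4.30 to 4.69) from 251 to 500 bp downstream. Beyond 500 bp it was 4.45 upstream and 4.44 downstream. By annotation, 35.9% of the 5388 summits lay outside protein-coding genes, 29.9% in introns, 26.1% in noncoding stretches of exons and 8.11% in coding exons.

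Most genes had a single peak. Of the 4238 genes, 3222 had 1 peak, 894 had 2, 112 had 3, 8 had 4, and 2 had 5, so that 24.0% (22.7% to 25.3%) had 2 or more. Where both peaks of a gene were assigned to the same start (427 genes), they stood on opposite sides of it in 283 genes, or 66.3% (61.6% to 70.8%). The opposite summits were a median of 874 bp apart (817 to 909), at medians of 338 bp upstream and 544 bp downstream. The downstream summit was the stronger in 131 of the 283, or 46.3% (40.4% to 52.3%), an interval that includes equal shares.

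The 2 genes with 5 peaks were Arid1b, a subunit of the BAF chromatin remodeler, and Mxi1, a Max-binding repressor of the Myc network. The peaks of Arid1b ranged from 4.15-fold (12 reads) to 7.51-fold (28 reads) within about 3 kb of GC-rich sequence on chr17. At Mxi1 they fell around separate starts and ranged from 2.73-fold (20 reads) to 6.49-fold (24 reads). With 4 peaks and the next highest values came the splicing regulator Hnrnpf (13.9-fold at its strongest), the homeodomain gene Cux1 (9.62-fold) and Fam49b (8.80-fold). These genes had 3 to 10 annotated coding starts, and the number of starts per gene had a median of 3 in genes with a peak and 2 in genes without.

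Gene groups differed widely in how many of their CpG-rich single promoters had a peak. The highest share was in splicing factor genes, at 39 of 46 or 84.8% (71.1% to 93.7%), and the lowest in homeobox, Sox, Pax, T-box and other regulators of development outside blood, at 7 of 130 or 5.38% (2.19% to 10.8%), beside 49.0% of all genes of the class. The median observed/expected CpG ratio was 0.857 in the splicing list and 0.755 in the developmental list. Across all genes with a ratio from 0.7 to 0.8, 46.3% had a peak. The part of CpG content in the shares of the lists was not tested. The lists were drawn up with earlier results of these data known, and overlap in part.

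Splicing factors also had the highest median for the strongest peak of a gene, 6.41-fold, beside 5.09 (5.03 to 5.16) over all 4238 genes. Their strongest members were Hnrnph1 (19.2-fold), Srsf2 (17.7), Hnrnpf (13.9) and Srsf1 (11.8). Srsf2, a splicing factor recurrently mutated in myelodysplastic syndrome, had 80 reads (63.4 to 99.6) in chr11:116852498-116854436, with the summit 107 bp upstream of its start. The 5′ end of an opposite-strand gene lay within 1 kb there, overlapping rather than divergent, so this peak cannot be assigned to one of the pair. An opposite-strand 5′ end lay within 1 kb also at Capza1, Kdm5a, Eif1ad and Ndufs1, and their peaks are uncertain in the same way. No peak was listed at a CpG-rich start of Ddx41, Prpf6, Sf3a2, Snrpa1, Snrpd3, Srsf9 or Zrsr2.

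The translation machinery was not uniform. Cytosolic ribosomal protein genes had a peak in 46 of 56 (82.1%, 69.6% to 91.1%), with a median strongest fold enrichment of 4.88 and Rps14 (10.1), Rpl37a (9.11), Rpl27 (9.02) and Rps15 (8.68) at the top. Translation initiation factors, listed with genes named after them such as Eif1ad, had one in 28 of 40 (70.0%, 53.5% to 83.4%) with a median of 5.45. The highest were Eif1ad (12.8), the helicases Eif4a2 (10.3) and Eif4a1 (9.51), and the cap-binding inhibitor Eif4ebp1 (8.14). Mitochondrial ribosomal protein genes stood lower, at 17 of 30 (56.7%, 37.4% to 74.5%) and a median of 3.84, and their strongest members Mrps36 (7.37), Mrps28 (5.94), Mrpl52 (5.89) and Mrpl53 (5.50) were below 8-fold. Their interval includes 49.0% and overlaps that of the cytosolic list.

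Genes of chromatin regulation were mostly bound. Polycomb, Asxl and histone methyltransferase genes had a peak in 38 of 49 (77.6%, 63.4% to 88.2%), led by the H3K4 methyltransferase gene Setd1b (13.2), the H3K36 methyltransferase gene Setd2 (12.2), the demethylase Kdm5a (11.2) and Nsd3 (10.4). Among acetyltransferases, deacetylases and bromodomain proteins, 26 of 35 had a peak (74.3%, 56.7% to 87.5%), led by Brpf1 (11.6), Rcor1 (10.6), Epc1 (9.82) and Tbl1xr1 (9.10). Of the DNA methylation genes, 13 of 19 did (68.4%, 43.4% to 87.4%), with Mbd1 (10.1), Gadd45a (9.13), Uhrf2 (8.36) and Mbd3 (7.80) highest, and Dnmt3a, Dnmt3b, Idh2, Tet1, Uhrf1 and Zbtb33 without a listed peak at a CpG-rich start. The interval of the DNA methylation list includes the 49.0% of the whole class, and those of the other 2 lie above it.

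The paired acetyltransferases that Myb recruits differed in fold enrichment. Ep300, which encodes p300, had 1 peak of 7.90-fold with 25 reads (16.2 to 36.9) at 137 bp downstream of its start (chr15:81584592-81587131). Crebbp, which encodes CBP, had 1 peak of 2.99-fold with 22 reads (13.8 to 33.3) at 285 bp downstream (chr16:4212739-4213320). The read intervals of the 2 genes thus overlapped, while the estimated IgG background was 1.56 at Ep300 and 5.0 at Crebbp. Tet2, a dioxygenase that oxidizes 5-methylcytosine, had 1 peak of 3.52-fold with 17 reads (9.90 to 27.2), 29 bp downstream of its start (chr3:133544864-133545560). Asxl1, a Polycomb-associated regulator, had 1 of 7.43-fold with 27 reads (17.8 to 39.3), 40 bp downstream (chr2:153345112-153346054).

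Transcription, cell cycle and survival genes had shares whose intervals overlapped those of the chromatin lists. Mediator and RNA polymerase II genes had a peak in 36 of 46 (78.3%, 63.6% to 89.1%), with the general factor gene Gtf2a1 (13.8), the largest polymerase subunit Polr2a (13.1), Med26 (10.1) and Taf5 (9.62) highest and a median of 4.63. The list of cyclins, cyclin-dependent kinases, E2F and Rb genes also holds other cell cycle genes, such as the p53 regulator Mdm4. Of its genes 36 of 51 had a peak (70.6%, 56.2% to 82.5%), led by Mdm4 (11.4), Cdk12 (9.21), Ccnt2 (9.04) and the inhibitor Cdkn2c (8.22). None was listed at a CpG-rich start of Cdk6, Cdk2 or Ccnd1. Of DNA replication genes 19 of 27 had a peak (70.4%, 49.8% to 86.2%), with the licensing inhibitor Gmnn (8.16), Gins2 (7.77), Rrm2 (7.29) and the licensing factor Cdt1 (6.89) at the top. Over the whole class the share was 49.0%, and the lower limit for DNA replication lay only just above it.

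In the Bcl2 family 10 of 16 genes had a peak (62.5%, 35.4% to 84.8%), the strongest being the proapoptotic Bbc3 (12.4), the survival gene Mcl1 (11.1), Bcl2l13 (9.47) and Bcl2l11 (6.29). Bcl2 itself had 1 weak peak of 3.79-fold with 14 reads (7.65 to 23.5), 238 bp downstream of its start. Proteasome subunits, listed with genes of like symbol such as Psmc3ip, had a peak in 17 of 26 (65.4%, 44.3% to 82.8%), with Psmb3 (7.90) and Psmd7 (6.6) highest. Respiratory chain subunits had one in 22 of 40 (55%, 38.5% to 70.7%), with Ndufs1 (9.37) and Atp5d (8.01) highest. The intervals of these 3 lists include 49.0%.

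**Figure D3:**
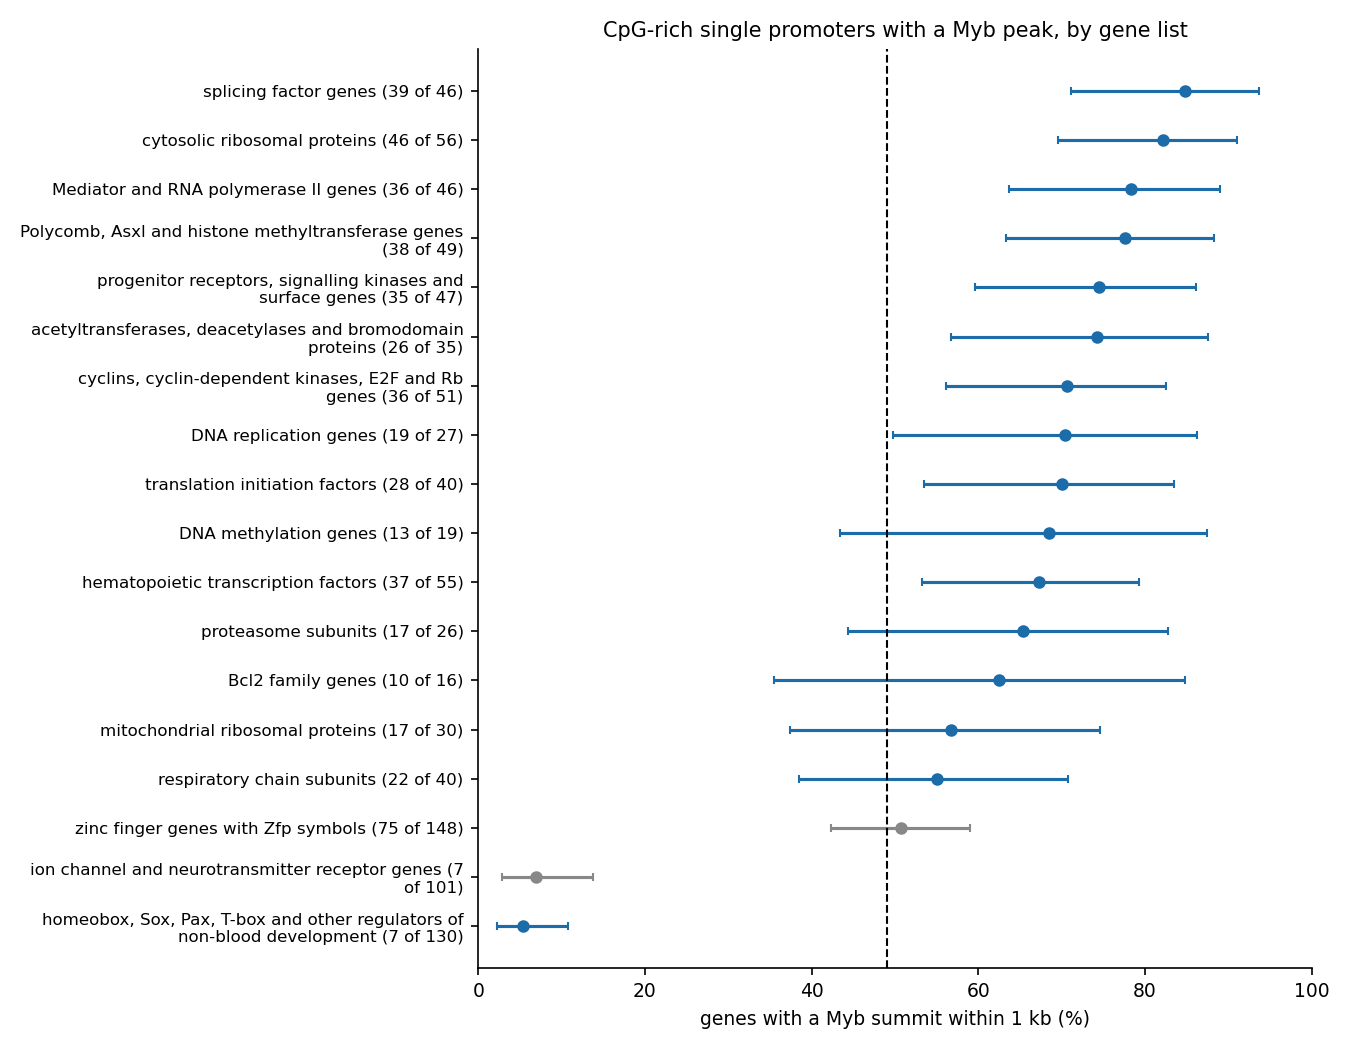
Share of genes with a CpG-rich single promoter that had a Myb summit within 1 kb (x axis, %) in each gene list, with exact 95% intervals and counts beside the names; gray lists were added after the other shares had been seen. The dashed line marks 49.0% over the class, and the developmental and channel lists lie far to its left.

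Hematopoietic transcription factor genes had a peak in 37 of 55 cases (67.3%, 53.3% to 79.3%), beside 49.0% of the class. Their median observed/expected CpG ratio was 0.849, and across all genes with a ratio from 0.8 to 0.9 the share was 55.2%. The part of CpG content was not tested. The median strongest fold enrichment of the list, 4.92, was close to that of the class. After Hmga1, the strongest were the zinc finger factor Klf13 (11.5), Myc (9.79) and Tcf3 (9.68), which encodes E2A proteins. Myc had 3 peaks. The strongest (chr15:61984690-61985253) had 33 reads (22.7 to 46.3) and its summit 336 bp upstream of the nearest start, and the others were 4.2-fold in an exon near a start and 4.49-fold in the coding exon. No peak was listed at a CpG-rich start of 18 factors, among them Runx1, Ets1, Irf8, Mecom, Hhex, Ikzf3 and Zbtb16.

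Tal1, a basic helix-loop-helix factor of stem cells and erythroid cells, had 3 peaks at CpG-rich starts, one strong and 2 weak. The strong one reached 9.68-fold with 49 reads (36.3 to 64.8) in an intron 379 bp downstream of a start (chr4:115056259-115057482), and the others were 3.15-fold with 11 reads and 3.5-fold with 26 reads. Gata2, a zinc finger factor of stem cells, also had 3, all weak, from 3.55-fold to 4.78-fold with 14 to 18 reads. Myb itself had 2, of 4.10-fold with 20 reads (12.2 to 30.9) and 4.08-fold with 13 reads (6.92 to 22.2), both in an intron, at 871 and 297 bp downstream of the start. Runx1 had none at a CpG-rich start and 2 near its other starts.

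Receptor and signalling genes of progenitors had a peak in 35 of 47 cases (74.5%, 59.7% to 86.1%), beside 49.0% of the class. Kit, the stem cell factor receptor, was the strongest at 8.71-fold with 31 reads (21.1 to 44.0), but its summit lay 994 bp downstream of the start, in an intron and just inside the 1 kb limit (chr5:75574830-75576235). The kinase genes Akt2 (7.79-fold) and Pik3ca (7.35-fold) followed. Flt3, another receptor kinase of progenitors, had 1 peak of 6.49-fold with 24 reads (15.4 to 35.7), 75 bp downstream of its start. Cd34 and Ccnd2 have CpG-poor promoters and so fall outside the class.

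The 7 developmental regulators with a peak were Six5 (5.29-fold), Hoxa7 (4.87), Hoxa9 (4.60), Nkx3-2 (3.84), Lhx8 (3.71), Hoxa11 (3.69) and Dlx1 (2.35). They include 3 of the 24 Hox genes of the class, all in the Hoxa cluster. Hoxa9, a homeodomain factor of progenitors and leukemia, is also in the hematopoietic list, and its peak had 21 reads (13 to 32.1) at 74 bp downstream of the start. All 7 were below 6-fold, and at Dlx1 the q-value was above 0.05.

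After these shares had been seen, 2 further lists were added. Ion channel and neurotransmitter receptor genes, which also serve mostly other tissues, had a peak in 7 of 101 cases (6.93%, 2.83% to 13.8%), with a median observed/expected CpG ratio of 0.755 and an interval that overlapped that of the developmental list. Zinc finger genes with Zfp symbols had one in 75 of 148 (50.7%, 42.3% to 59.0%), near the share of the class, with Zfp438 (13.2), Zfp1 (11.6) and Zfp609 (9.15) highest.

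**Figure D4:**
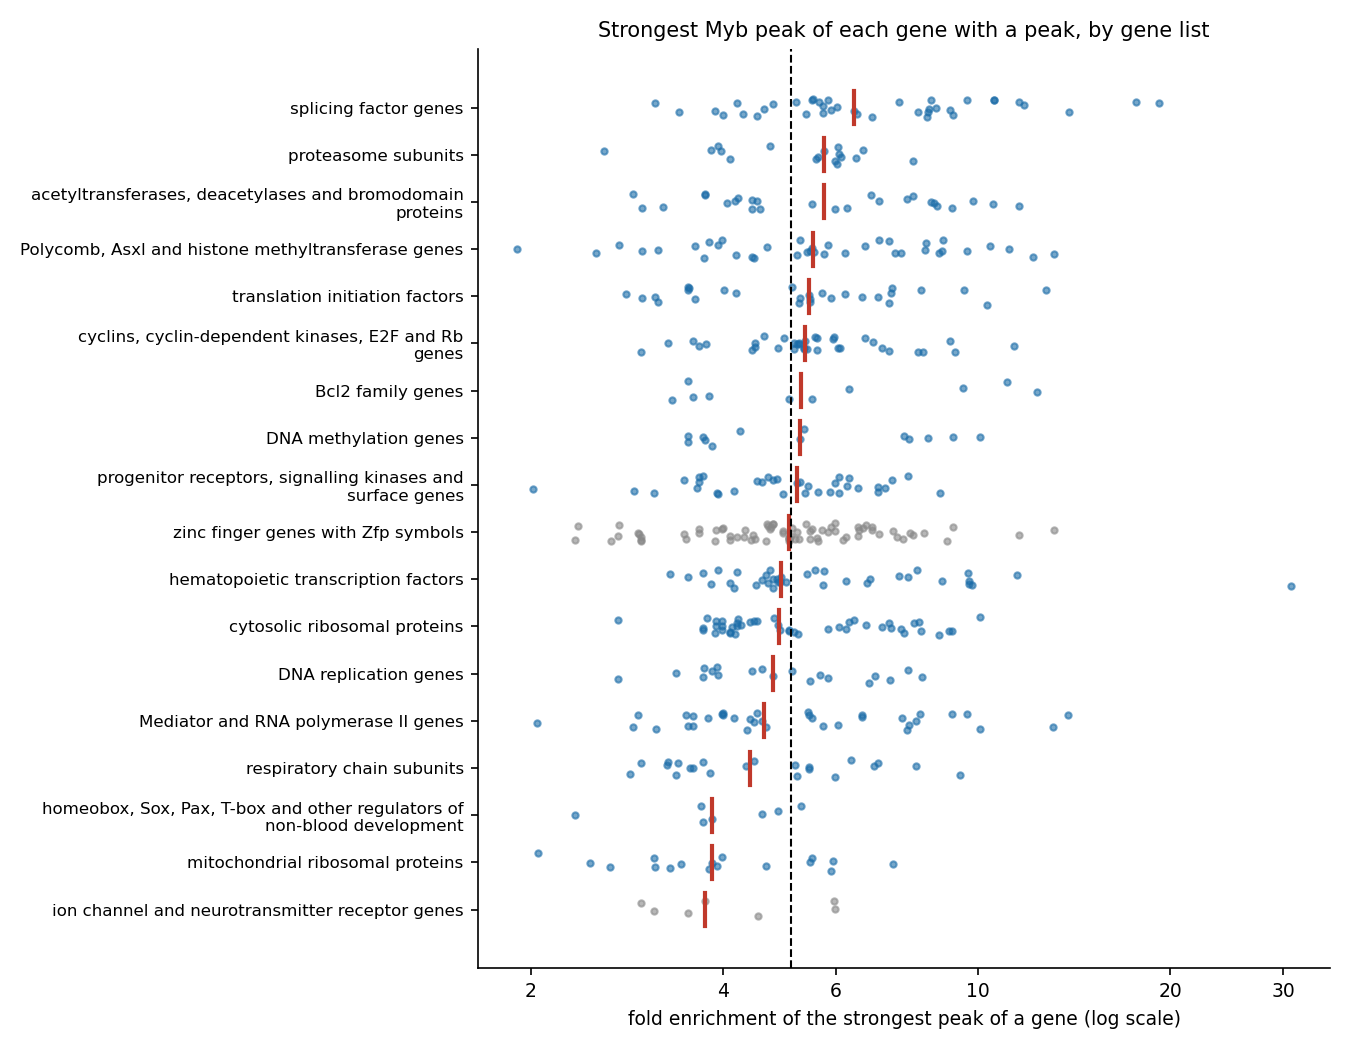
Fold enrichment of the strongest peak of each gene with a peak at a CpG-rich single promoter (x axis, log scale), by gene list. Points are genes, red bars are list medians, gray lists were added after the other shares had been seen, and the dashed line is the median of 5.09 over the class; splicing factors have the highest median and Hmga1 the highest single value.

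The Myb motif was only slightly more frequent at summits than in their surroundings. A Myb motif lay within 50 bp of 586 of the 5388 summits, or 10.9% (10.1% to 11.7%), beside 16.7% of all peaks. Windows of the same size centered 500 bp to each side held it in 9.14% (8.6% to 9.7%), a ratio of 1.19. At CpG-poor promoters the summit share was 16.3% (14.9% to 17.7%) and the flank share 10.9% (10.1% to 11.7%), a ratio of 1.49, and at divergent pairs the shares were 15.3% (12.8% to 18.04%) and 10.2% (8.72% to 11.8%), a ratio of 1.50. Summit shares relative to flanks were higher for other families, with 3.79% against 1.65% for ETS, 1.71% against 0.705% for NRF1 and 0.798% against 0.241% for CREB (TGACGTCA or TGACGCAA). The SP/KLF form was common in both, at 19.0% and 18.2%, as were the E-box forms of Tal1 (CAGATG or CAGCTG or CAGGTG), at 14.98% (14.03% to 15.96%) and 15.33% (14.65% to 16.02%). The GATA forms (AGATAA or TGATAA or AGATAG or TGATAG) were scarcer at summits, at 7.74% (7.04% to 8.49%) against 9.79% (9.24% to 10.4%).

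The Myb motif was more frequent in the strongest peaks. The peaks were divided into 4 groups of like size by fold enrichment. In the strongest group, from 6.12 upward, 13.8% of summits (12.0% to 15.8%) held it, against 8.68% of flanks (7.64% to 9.81%). In the other 3 groups the share was 9.74%, 10.1% and 9.83% from weakest to stronger, and each interval overlapped that of its flanks. Among the 500 strongest peaks it was 17% (13.8% to 20.6%) against 9.80% (8.03% to 11.8%), and among the 100 strongest 19.0% (11.8% to 28.1%) against 12.0% (7.84% to 17.3%), where the intervals overlapped. Median reads per summit were 16, 17, 20 and 30 in the 4 groups, so the strongest group was also the best covered. In the same group the RUNX forms (TGTGGT or TGCGGT) stood in 9.94% of summits (8.39% to 11.7%) against 7.23% of flanks (6.28% to 8.28%), beside 7.62%, 7.78% and 7.83% of summits in the weaker groups. The E2F share rose from group to group, from 1.89% (1.22% to 2.77%) through 2.57% and 3.10% to 3.86% (2.89% to 5.03%), with 1.85% (1.38% to 2.44%) in the flanks of the strongest. The ETS share was 3.62%, 4.04%, 4.29% and 3.19% from weakest to strongest, with overlapping intervals.

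**Figure D5:**
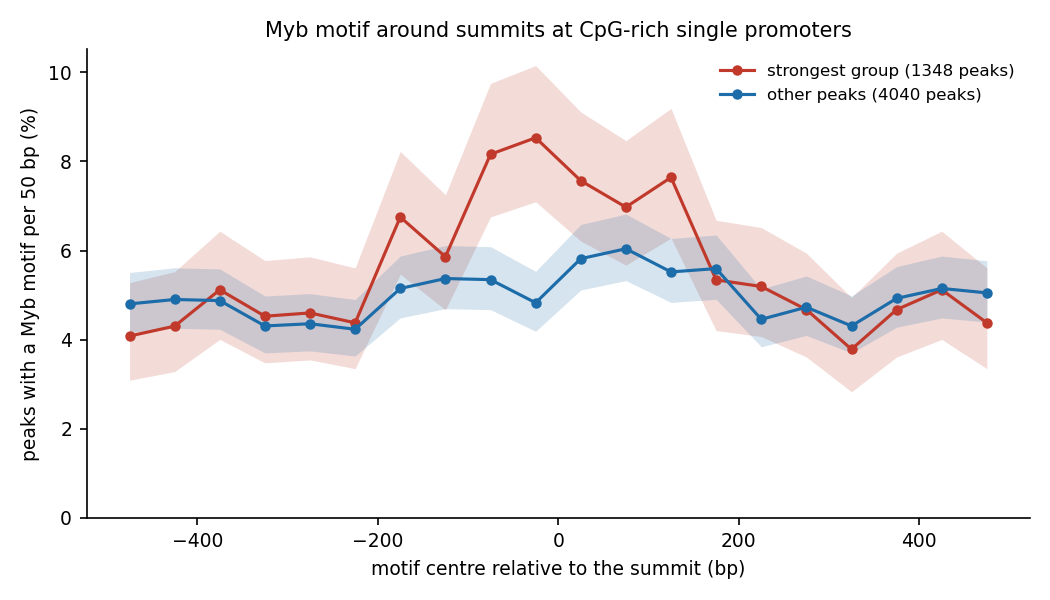
Share of peaks with a Myb motif centered in each 50 bp bin (y axis, %) around the summit (x axis, bp) for the 1348 peaks of the strongest group and the other 4040; bands are exact 95% intervals. The strongest group rises to 8.53% in the bin just before the summit from about 4% to 5% beyond 200 bp, and the other peaks stay between 4.23% and 6.04%.

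The 4 forms of the Myb motif did not behave alike. The forms that contain a CpG were more frequent at summits than in flanks, CAACGG with 3.12% (2.67% to 3.62%) against 1.84% (1.59% to 2.11%) and TAACGG with 2.1% (1.73% to 2.52%) against 1.06% (0.873% to 1.27%). For the forms without one the intervals overlapped, CAACTG with 3.79% (3.29% to 4.33%) against 3.47% (3.13% to 3.83%) and TAACTG with 2.69% (2.28% to 3.16%) against 3.09% (2.77% to 3.43%). Summit windows also held more CpG in general, with a mean of 7.16 per window against 5.76 in flanks, and the part of base composition in this difference was not tested. In the strongest group CAACTG stood at 4.97% (3.87% to 6.27%) of summits and 3.19% (2.56% to 3.92%) of flanks, and these intervals overlapped slightly.

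Motifs changed with the position of the summit. ETS stood at 5.81% of summits within 250 bp of the start and at 0.724% of those over 500 bp downstream, and SP/KLF fell in the same way from 25.7% to 7.48%. The Myb motif went the other way, from 9.37% (8.33% to 10.5%) within 250 bp to 14.4% (12.0% to 16.9%) over 500 bp downstream and 13% (10.2% to 16.2%) over 500 bp upstream. GATA rose from 4.76% (4.0% to 5.61%) to 12.3% (10.1% to 14.7%) and 15.1% (12.2% to 18.5%). Flank windows were not compared by position, and the part of base composition in these changes was not tested.

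Promoter sequence was also compared between genes with and without a peak, from 250 bp before to 50 bp after the most 5′ CpG-rich start. That start need not be the one at which the peak of the gene lay. The ETS motif separated the genes most, in 21% (19.8% to 22.3%) of 4238 genes with a peak and 11.1% (10.2% to 12.1%) of 4409 without, and in 16% of all. By the ratio of shares CREB followed with 5.57% against 3.24%, and then the YY1 form AAGATGG with 7.69% against 4.79%. Next was the CTCF form, rare at 0.590% against 0.386% and with overlapping intervals. NRF1 had 13% against 8.6% and the ZNF143 form ACTACA 9.37% against 6.49%. The NFY form CCAAT was common in both, at 37.2% (35.7% to 38.7%) against 33.0% (31.6% to 34.4%). The Myb motif was in 23.4% (22.1% to 24.7%) with a peak and 19.2% (18.1% to 20.4%) without, and in 21.2% of all. SP/KLF was nearly as frequent with as without a peak, at 75.7% (74.4% to 77.0%) and 75.1% (73.8% to 76.4%), and the E-box forms CAGATG or CAGCTG or CAGGTG were scarcer with a peak, at 33.6% (32.2% to 35.1%) against 38.6% (37.2% to 40.1%).

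The ETS difference held at each level of CpG content. It was 21.3% with a peak against 10.6% without at an observed/expected ratio of 0.6 to 0.7, and 20.8% against 11.1%, 23.0% against 12.6%, 19.6% against 10.8% and 16.3% against 6.67% in the bins above. The intervals overlapped in the top bin alone, where 120 genes had no peak. For the Myb motif the intervals were separate from 0.8 to 0.9, at 23.5% (21.2% to 25.9%) against 16.5% (14.3% to 18.9%), and from 0.7 to 0.8, at 24.6% (22.2% to 27.2%) against 19.8% (17.7% to 22%), and overlapped in the other 3 bins. For NRF1 the intervals were separate in the same 2 bins, and overlapped from 0.6 to 0.7, at 7.72% against 5.88%, and from a ratio of 0.9 upward, at 16.6% against 16.3% and 14.1% against 15%. Each match is a description of letters in these windows and does not show occupancy by the factor.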

How the data were processed

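ChIP-Seq of Myb and IgG in Lin– bone marrow cells gave 2 samples with 1 library each, grouped by their titles, and 1 file, the Myb peak list. Per the labels and the study's methods, chromatin was sheared in 14 sonication cycles, 1 μg was precipitated with 1.5 μg of antibody, and libraries were tagged by Tn5 transposase and amplified in 12 PCR cycles. Per the submitters' processing notes, reads were processed with cutadapt 1.15, BWA 0.7.13, Picard and MACS2 2.1.1.20160309 on mm10. The authors kept peaks that overlapped between pseudo-replicates, and the study's methods do not say how these were made. With 1 Myb library, they are not independent replicates. The study's methods state a q-value below 0.05 for the calls, while in the deposited list it was at most 0.05 in 92.8% of peaks. The deposited fold enrichment is a ratio of the scaled Myb pileup to the IgG background at the summit, with a constant added to both. It is therefore not the printed reads divided by the printed background. That background is a local estimate by the peak caller, never below 1.46 in this list. The deposited p-value and q-value are −log10 values. The deposited score was 10 times the −log10 p-value without its decimals in 25787 of the 25793 rows, and was not used.

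Library depth is not in the list. Reads at each summit were recovered from fold enrichment and p-value, which gave whole reads within 0.03 in 100% of rows at a pileup scale of 0.769, with more than 1 read number in tolerance for 2.66% of value pairs. Starts were those of protein-coding transcripts of protein-coding genes in GENCODE vM21, and sequence came from the GRCm38 reference. A gene counted as CpG-rich when any of its starts was, and a peak was counted at its nearest start, so a peak near a CpG-poor start of such a gene is in the CpG-poor class. Motifs were searched on both strands. Shares have exact (Clopper-Pearson) 95% intervals, read numbers exact Poisson 95% intervals, and medians order-statistic 95% intervals. PCR copies and neighboring peaks are not independent, so these cover counting error only. No p-value was computed across peaks or genes, which are not replicates. Motif search, base composition and intervals were tested on simulated data. Python 3 with NumPy, SciPy and matplotlib was used.

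The members and the lists were chosen with earlier results of these data known. Named were the 10 peaks with the highest fold enrichment, 5 with the highest −log10 q-value, the widest peak, the 5 genes with most peaks, in each list up to 4 genes with the strongest peaks, and Myb, Runx1, Gata2, Tal1, Ep300, Crebbp, Tet2, Asxl1, Srsf2, Kit, Cd34, Flt3, Bcl2, Myc, Ccnd2 and Cdk6. Genes without a peak and developmental genes beyond the first 4 were named after their values were seen, as were the windows of Zbed4, Ino80 and Vars by motif. One gene that this rule names is not reported here. Alternatives covered q-value limits, distance limits, CpG content, divergent genes, transcript types, motif forms and window sizes.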

Additional observations from a re-analysis of the deposited data

How the results depend on the processing

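No paired analysis was possible because there was 1 library per group. Of 145 values under alternatives, 71 stayed within the main 95% interval (or within 1.5 times, for the number of peaks) and 74 did not, as described here. A list without its weaker peaks has fewer bound promoters by construction, and for the other changes the cause was not tested. A limit on −log10 q of 2 gave 21.9% of all peaks in the class, shares of promoters with a peak of 45.1% (CpG-rich single), 39.2% (divergent) and 12.6% (CpG-poor), and median fold enrichments of 5.0, 5.08 and 4.90. Raising the limit on −log10 q to 5 left 2678 peaks, or 24.1% of all, shares of 28.4%, 24.3% and 7.17%, and medians of 6.16, 6.22 and 6.10. Under it the median summit lay 9 bp upstream (signed distance -9 bp), with 48% downstream and 58.1% within 250 bp. The Myb motif stood at 12.1% of CpG-rich and 19.7% of CpG-poor summits. It was in the promoters of 26.0% of genes with a peak, and the ETS motif in those of 13.8% of genes without. The shares of gene lists with a peak then became 40% for hematopoietic transcription factors, 45.7% for acetyltransferases and the genes listed with them, 36.8% for DNA methylation, 51.0% for Polycomb and methyltransferase genes, 53.6% for cytosolic and 20.0% for mitochondrial ribosomal proteins, 47.5% for translation initiation, 25.0% for the respiratory chain, 37.0% for DNA replication, 51.0% for cyclins and their partners, 46.8% for progenitor receptors, 45.7% for Mediator and polymerase and 31.1% for Zfp genes. The splicing (73.9%) and developmental (2.31%) lists still had the highest and the lowest share, but at a limit of 2 the channel list (3.96%) lay below the developmental one (4.62%).

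Summits within 500 bp gave 15.7% of all peaks, promoter shares of 42.3%, 38.9% and 12.4% in the same order, and a median fold enrichment of 4.87. The Myb motif share at CpG-rich single promoters was then 9.89% (8.99% to 10.9%) at summits and 9.29% (8.66% to 9.94%) in flanks. These intervals overlapped, unlike those of the main setting. Counting any base of the peak within 1 kb gave 23.1% of all peaks and promoter shares of 51.0% (CpG-rich) and 14.9% (CpG-poor). A CpG ratio of at least 0.75 gave 15.5% of all peaks, shares of 54.4% and 19.2%, a median of 4.87 and a Myb motif share of 14.8% at the promoters then counted as CpG-poor. Dropping genes with an opposite-strand 5′ end of either facing gave 19.6% of all peaks, and starts of all transcripts gave 47.8% of promoters with a peak and 55.1% of summits within 250 bp.

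The shorter motif AACNG stood at 46.4% of CpG-rich summits and 40.4% of flanks, at 53.4% and 45.2% for CpG-poor promoters, and at 44.5% and 51.3% in the weakest and strongest groups by fold enrichment. Windows of 25 bp on each side gave 5.64% and 4.59%, 9.16% and 5.44%, and 5.13% and 6.82% in that order, and windows of 100 bp gave 21.5% and 17.4%, 28.8% and 20.6%, and 18.7% and 27.1%. In promoters from 500 bp before to 100 bp after the start, the Myb motif was in 43.9% with and 39.1% without a peak, and ETS in 26.5% and 14.9%. In each of these the order of summit over flank, and of genes with over genes without a peak, was as in the report. Median reads of 20 per summit limit single peaks, and 47.1% of the class had fewer than 20.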

Other observations

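CpG-rich single promoters on the X chromosome had a peak less often than those on the autosomes. Of 196 X-linked genes 52 had one, or 26.5% (exact 95% interval 20.5% to 33.3%), against 49.5% (48.5% to 50.6%) of 8450 autosomal genes, and the 19 autosomes ranged from 42.9% (chromosome 15) to 59.9% (chromosome 19). The 65 X-linked peaks had a median fold enrichment of 4.36 (3.99 to 4.78), against 4.72 (4.69 to 4.79) on the autosomes. Both the Myb reads at these summits (median 15 against 20) and the estimated IgG background (median 1.56 against 2.15) were lower on the X. The median observed/expected CpG ratio of the promoters was 0.741 on the X and 0.790 on the autosomes. The part of read depth and of CpG content in the lower share was not tested. The labels do not give the sex of the mice, and the study's methods state only that both sexes were used in the study.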
